A study of Neurospora crassa OR74A with 15 samples.

Results

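Orange peel powder, a whole plant material, was compared with pectin as the carbon source of Neurospora crassa, a filamentous fungus that lives on dead plants. Every library labelled with either carbon source was used: 2 on orange peel powder and 3 on pectin, which is 5 of the 15 libraries of the series. All cultures were mycelia of a single wild-type strain, FGSC 2489, grown in shaken flasks in the light for 16 h on 2% sucrose, washed without carbon, and harvested 4 h after transfer to 1% orange peel powder or 1% pectin. The design text calls the replicates biological, and the labels do not say which flasks were handled together. No mutant, transgene or other treatment was involved, and the comparison asks what the peel induces, or lacks, relative to the purified polymer.

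Pectin is the galacturonic-acid-rich matrix of the plant cell wall. Its smooth backbone is cut by polygalacturonases and by pectate and pectin lyases once methyl and acetyl groups are removed by esterases, and its branched regions carry arabinan and galactan side chains with enzymes of their own. Citrus peel holds pectin together with cellulose, hemicelluloses such as xylan, and free sugars. Fungi take up the released galacturonic acid, xylose and arabinose and feed them through reductive pathways.

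The values are FPKM, fragment numbers scaled by transcript length and by library size, so levels of different genes are on a per-length scale. The depth behind them is unknown. Of 9733 genes, 948 and 936 had a listed value of 0 on orange peel powder, against 953, 1029 and 996 on pectin. Median FPKM was 88.7 and 92 on orange peel powder, against 87.3, 87.8 and 92.2 on pectin. Across genes, which are not independent replicates, Pearson's r of log2(FPKM + 1) was 0.992 between the orange peel powder libraries and 0.977 to 0.983 between pectin libraries. Between the groups it was 0.965 to 0.981. Pectin library 3 correlated at 0.978 and 0.981 with the orange peel powder libraries. With pectin libraries 1 and 2 it correlated at 0.977 and 0.983. Pectin library 1 correlated least with the orange peel powder libraries, at 0.965 and 0.967. The first principal component held 53.9% of the variance, and on it pectin library 3 lay nearest to the peel libraries. There orange peel powder scored -28.87 and -23.83 and pectin libraries 1 to 3 scored 29.53, 20.56 and 2.61. On the second, with 21.1%, pectin library 1 lay apart from the other pectin libraries. Pectin libraries 1 to 3 scored 19.85, -9.88 and -21.59 on it, and orange peel powder 9.93 and 1.69. Among the 187 genes called below, pectin library 3 was the pectin library nearest to the peel libraries for 97 (51.9%), against 41.1% of all tested genes. Counts are therefore also given without it, and without each of the other libraries.

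Of 8650 genes tested, those with a mean of at least 1 FPKM, 187 were called (2.16%), 91 higher (1.05%) and 96 lower (1.11%) on orange peel powder. A gene was called when limma gave a Benjamini-Hochberg adjusted p below 0.05 and a log2 fold change of at least 1 in size, orange peel powder over pectin, on the log2(FPKM + 1) scale. Among called genes the log2 fold changes ran from -3.78 to 5.88, with 25 genes higher and 18 lower by 4-fold or more. The median log2 fold change over all tested genes was -0.02. In all 187 called genes the groups did not overlap, so the separation of a called gene adds nothing to its call. By an unadjusted p below 0.05, 1847 genes passed (21.4%). The count of calls changed with the libraries used. It was 10 without orange peel powder library 1 and 7 without library 2, where the lone library is assumed to vary like the pectin libraries, and 149, 59 and 405 without pectin libraries 1, 2 and 3. The 6 genes called in all 5 of these fits were the xylanase gene gh10-2, the xylosidase gene NCU01900, erg-4, ci-1, NCU00606 and fkr-3.

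**Figure D1:**
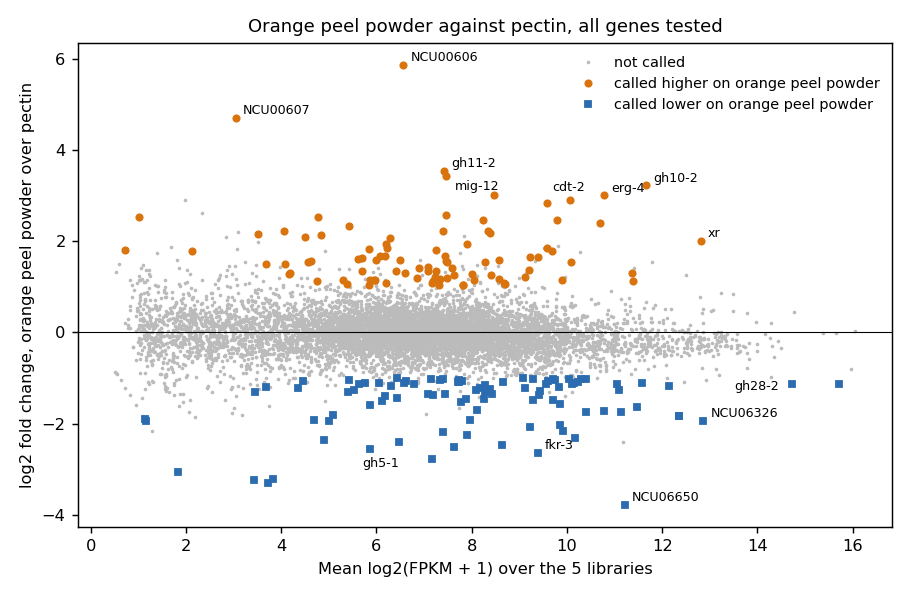
Each point is a gene, with the mean log2(FPKM + 1) over the 5 libraries on the horizontal axis and the log2 fold change of orange peel powder over pectin on the vertical axis. Orange circles are the 91 genes called higher, blue squares the 96 called lower and grey points the genes not called, and NCU00606 lies highest at 5.88 and NCU06650 lowest at -3.78.

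The genes for cutting the pectin backbone were lower on peel than on pectin. All 8 genes of that list were called lower, with a median log2 fold change of -1.42 and a range from -1.94 to -1.0. Among all tested genes 1.11% were called lower. As in every called gene, the groups did not overlap. Summed over the list, FPKM was 26228 and 26767 on orange peel powder, against 79873, 70794 and 63505 on pectin. Roles given here for genes without a symbol come from published work on Neurospora and not from the deposited files.

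The most abundant of them was the polygalacturonase gene gh28-2 (contig 10.4, positions 4670149 to 4671713, locus NCU06961), with 16724 and 17096 FPKM on orange peel powder, against 42839, 34758 and 34637 on pectin. The log2 fold change was -1.14 (SE 0.19, limma adjusted p = 0.0254). It still ranked at 14 among all genes by mean FPKM on orange peel powder, against rank 6 on pectin. It overlaps its neighbour NCU11766 by 54 bases, and reads from the shared stretch cannot be assigned to either gene from these tables. The lyase gene NCU06326 (contig 10.4, positions 2907806 to 2909298) had 3391 and 3256 FPKM on orange peel powder, against 14755, 11430.0 and 12373 on pectin, the largest change of the list (log2 fold change -1.94, SE 0.17, adjusted p = 0.00271). The pectate lyase gene NCU08176 had 2540.1 and 2355 FPKM on orange peel powder, against 7878, 11375 and 7564 on pectin (-1.84, adjusted p = 0.00814). Both lyase genes were thus more than 3-fold apart, with the orange peel powder pair tight and the pectin libraries well above it.

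Esterases, which prepare the backbone for cutting, followed the same order. NCU10045, the pectin methylesterase gene, had 2146 and 2756 FPKM on orange peel powder, against 10984, 10338 and 5837 on pectin (-1.84, SE 0.29, adjusted p = 0.024). NCU09976, the rhamnogalacturonan acetylesterase gene, had 125 and 129 FPKM on orange peel powder, against 339, 352 and 370.5 on pectin (-1.47, adjusted p = 0.00271). In the methylesterase gene pectin library 3 was the closest to the peel libraries, whereas in the acetylesterase gene it was the farthest. The rhamnogalacturonan lyase family gene asd-1 had 418 and 348 FPKM on orange peel powder, against 1178, 1018 and 820.0 on pectin (-1.38, adjusted p = 0.0147). NCU02654 was at 501 and 499 FPKM on orange peel powder, against 1144, 962 and 1059 on pectin (-1.07, adjusted p = 0.0109). The other polygalacturonase gene, gh28-1, had 383 and 327 FPKM on orange peel powder, against 754, 561 and 846 on pectin and lay at the edge of the call (-1.0, adjusted p = 0.0438).

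No backbone gene was called without either orange peel powder library, and 5, 4 and 7 were called without pectin libraries 1, 2 and 3. The call of gh28-1 was lost in all 3 of the pectin fits (adjusted p = 0.0938 and 0.0604 without libraries 1 and 2, log2 fold change -0.88 without library 3), that of gh28-2 without library 1 (adjusted p = 0.0702) or 2 (0.105), that of NCU10045 likewise (0.0553 and 0.112), and that of asd-1 without library 2 (0.0824).

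**Figure D2:**
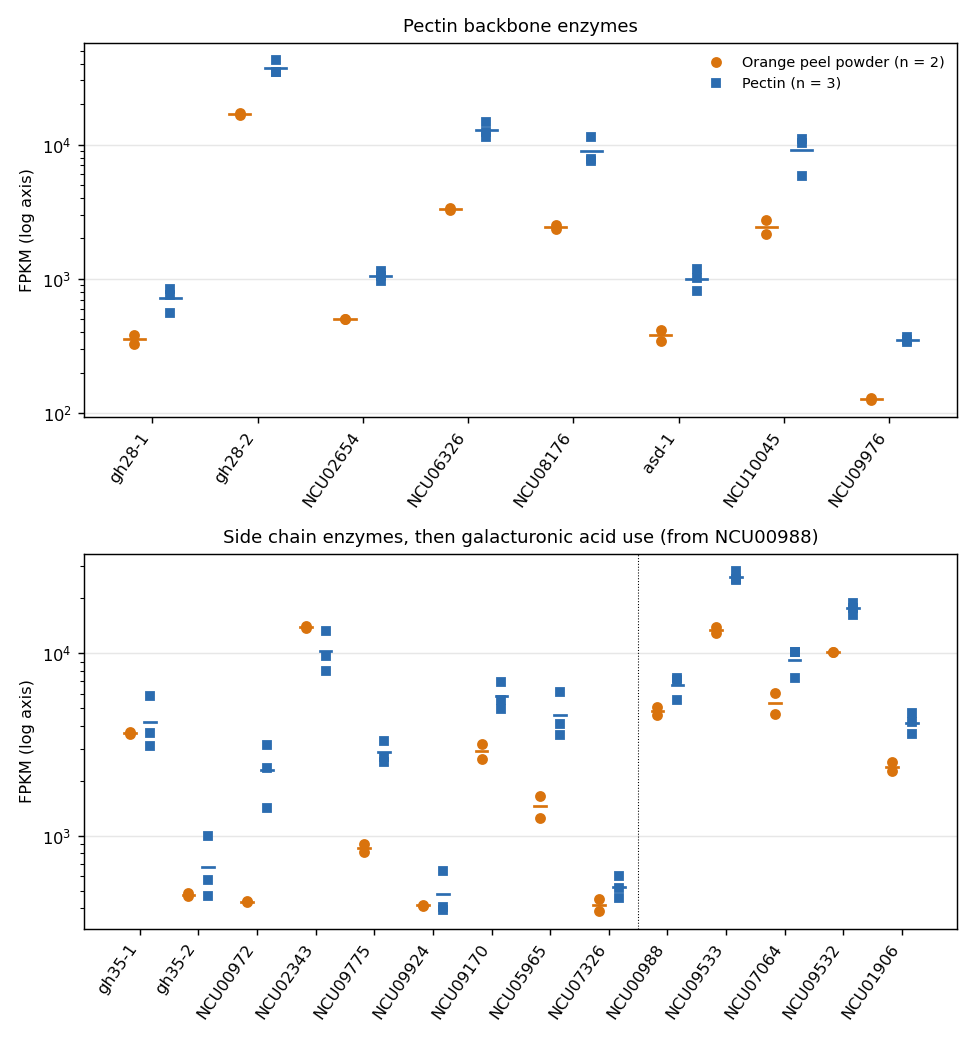
FPKM on a log axis in each library for pectin backbone enzymes (top) and for side chain enzymes and galacturonic acid use (bottom, split by the dotted line), with orange peel powder (n = 2) as circles left of pectin (n = 3) as squares and short lines at the group means. All 8 backbone genes and all 5 galacturonic acid genes had every circle below every square.

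Some enzymes for the side chains of pectin were lower and others were not. Of 9 tested genes of the list, 3 were called lower and none higher, where 1.11% and 1.05% of all tested genes were. The median log2 fold change was -0.44. NCU00852 was listed at 0 in all 5 libraries and was not tested. The endo-galactanase gene NCU00972 (contig 10.1, positions 6538989 to 6540345) had 432 and 438 FPKM on orange peel powder, against 2344, 3138 and 1413 on pectin (log2 fold change -2.32, SE 0.31, adjusted p = 0.0142). The arabinofuranosidase gene NCU09775 had 812 and 899 FPKM on orange peel powder, against 3315, 2548 and 2714 on pectin (-1.73, SE 0.16, adjusted p = 0.00338). NCU05965, of a glycoside hydrolase family that acts on arabinan and xylan, had 1639 and 1251 FPKM on orange peel powder, against 3562, 4084 and 6115 on pectin (-1.64, adjusted p = 0.0211).

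Other side chain genes were not called. Another arabinofuranosidase gene, NCU02343, was the most abundant of the list, at 13674 and 14094 FPKM on orange peel powder, against 9655, 7976 and 13199 on pectin (0.47, adjusted p = 0.294), and it alone had both peel libraries above all pectin libraries, as 18.3% of all tested genes did. The beta-galactosidase gene gh35-1 had 3693 and 3607 FPKM on orange peel powder, against 3651, 3104 and 5801 on pectin (-0.15, adjusted p = 0.786). NCU09170 missed the fold limit narrowly (-0.99, adjusted p = 0.0407). Without either orange peel powder library none of the list was called, and without pectin library 2 the call of NCU05965 was lost (adjusted p = 0.0929).

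All 5 genes that take up and use galacturonic acid had both orange peel powder libraries below all pectin libraries, as 22.7% of all tested genes did, and none reached the 2-fold change of a call. The median log2 fold change of the list was -0.79, with 5 of 5 at an unadjusted limma p below 0.05, against 21.4% of all tested genes, and 3 of 5 at an adjusted p below 0.05, against 3.46% of all tested genes at any fold. NCU09533, the galacturonic acid reductase gene at the first step, had 12934 and 13945 FPKM on orange peel powder, against 25082, 25632 and 28242 on pectin (-0.97, SE 0.17, adjusted p = 0.0287). NCU09532, the aldolase gene of the pathway, had 10190.5 and 10169.9 FPKM on orange peel powder, against 18823, 16268 and 17681 on pectin (-0.79, adjusted p = 0.0478). In both genes the groups lay well apart and the spread within each was narrow. NCU01906, the gene of the last reductase, had 2247 and 2525 FPKM on orange peel powder, against 4676, 4205 and 3612 on pectin (-0.80, adjusted p = 0.0483). The dehydratase gene NCU07064 was at 4661 and 6063 FPKM on orange peel powder, against 7346, 10093 and 10093 on pectin (-0.77, adjusted p = 0.0959). The galacturonic acid transporter gene NCU00988 was at 4613 and 5071 FPKM on orange peel powder, against 7349, 7158 and 5515 on pectin (-0.45, adjusted p = 0.206), the smallest difference of the list. Side by side, the medians were -1.42 for the backbone enzymes and -0.79 for galacturonic acid use, and the difference between these lists was not tested.

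Xylan-degrading enzymes showed the opposite direction. Of 11 genes, 8 were called higher on orange peel powder and none lower, where 1.05% of all tested genes were called higher, and the median log2 fold change was 1.65. Their summed FPKM was 26926 and 25584 on orange peel powder, against 8210.2, 7267 and 6362 on pectin. The endoxylanase gene gh10-2 (NCU08189, contig 10.3, positions 4598536 to 4599913) supplied much of it, with 12401 and 12428 FPKM on orange peel powder, against 1261, 1249 and 1458 on pectin. The difference was 9.39-fold between means (log2 fold change 3.23, SE 0.14, adjusted p = 0.000159), and the gene stood at rank 25 by mean FPKM on orange peel powder and at rank 561 on pectin.

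A second endoxylanase gene, gh11-2 (NCU07225), had the largest log2 fold change of the list from a low level. It had 772 and 723 FPKM on orange peel powder, against 79.5, 74.3 and 42.4 on pectin (3.54, SE 0.27, adjusted p = 0.00165). Beta-xylosidases release xylose from the cut fragments, and the genes for them in this list were higher too. The beta-xylosidase gene NCU01900 had 2445 and 2573 FPKM on orange peel powder, against 342, 332 and 376 on pectin (2.84, SE 0.13, adjusted p = 0.000159). The beta-xylosidase gene NCU09652 had 1654 and 1790.4 FPKM on orange peel powder, against 531, 438 and 534 on pectin (1.78, adjusted p = 0.00228). In these genes and the next 4, as in every called gene, the groups did not overlap.

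The endoxylanase gene gh10-3 had 781 and 708 FPKM on orange peel powder, against 217, 233 and 289 on pectin (1.60, SE 0.16, adjusted p = 0.00506). The endoxylanase gene gh11-1 had 5298 and 3932 FPKM on orange peel powder, against 2214, 1944 and 1443 on pectin (1.31, adjusted p = 0.028). Esterases strip acetyl and feruloyl groups from xylan. The acetylxylan esterase gene NCU05159 had 1306 and 1350.1 FPKM on orange peel powder, against 567, 467 and 284 on pectin (1.65, adjusted p = 0.0272). The esterase gene NCU08785 had 132 and 138 FPKM on orange peel powder, against 34.9, 43.7 and 46.7 on pectin (1.68, adjusted p = 0.00521).

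Not every xylan gene was higher. The endoxylanase gene gh10-1 had 525 and 495 FPKM on orange peel powder, against 1165, 945 and 625 on pectin (-0.79, adjusted p = 0.135). The acetylxylan esterase gene NCU04870 had 238 and 251 FPKM on orange peel powder, against 653, 549 and 260.2 on pectin (-0.89, adjusted p = 0.215). Both lay wholly below the pectin libraries, with library 3 nearest to the peel, and without that library both were called lower (gh10-1 at -1.04, adjusted p = 0.00833; NCU04870 at -1.29, adjusted p = 0.00367). The feruloyl esterase gene NCU09491 had 1374 and 1197 FPKM on orange peel powder, against 1146, 992 and 1003 on pectin (0.30, adjusted p = 0.28). Without either orange peel powder library 2 of the 11 genes were called higher, without pectin library 2 the count was 6, with gh11-1 (adjusted p = 0.118) and NCU05159 (0.109) lost, and without pectin library 1 or 3 it was 8.

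In the single library on 2% xylan from the same study, which has no replicate and holds more carbon, the genes did not keep to a common order. There gh10-2 reached 57020.5 FPKM, gh11-2 26982 and NCU01900 17073, all above both groups compared here. By contrast gh10-3 was at 20.2 FPKM and gh11-1 at 379 on xylan, below every orange peel powder and pectin library. The xylan library listed 1871 genes at 0, against 936 to 1029 in the orange peel powder and pectin libraries. Low values in it, such as that of gh10-3, are therefore less certain.

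**Figure D3:**
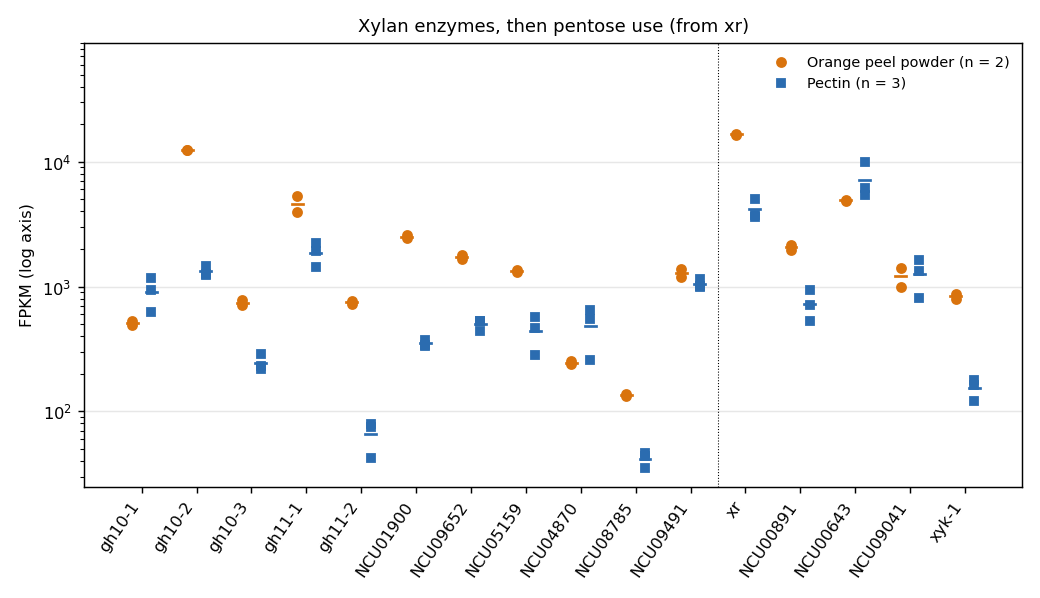
FPKM on a log axis in each library for xylan enzymes and, right of the dotted line, pentose use, with orange peel powder (n = 2) as circles left of pectin (n = 3) as squares and short lines at the group means. For 8 xylan genes and for xr, NCU00891 and xyk-1 the circles stand well above the squares, while gh10-1, NCU04870 and NCU00643 have theirs below.

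The pathway that carries xylose into metabolism was higher on orange peel powder, and no gene of the arabinose branch was called. Of 5 pentose genes 3 were called higher, where 1.05% of all tested genes were, with a list median of 1.54. The gene xr (NCU08384, contig 10.1, positions 5518647 to 5520522), for the xylose reductase of the first step, had 16344 and 16809 FPKM on orange peel powder, against 3641, 3746 and 5072 on pectin (log2 fold change 2.01, SE 0.19, adjusted p = 0.0036). It ranked at 18 by mean FPKM on orange peel powder and at 200 on pectin. The xylitol dehydrogenase gene NCU00891 had 1952 and 2163 FPKM on orange peel powder, against 526, 717 and 939 on pectin (1.54, adjusted p = 0.0214). The xylulokinase gene xyk-1 had 801 and 875 FPKM on orange peel powder, against 120.4, 162 and 178 on pectin (2.46, SE 0.19, adjusted p = 0.00167). These 3 genes encode consecutive steps from xylose to xylulose 5-phosphate.

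The remaining members belong to the arabinose branch. The arabinitol dehydrogenase gene NCU00643 had 4924 and 4885 FPKM on orange peel powder, against 5408, 6124 and 9872 on pectin (-0.49, adjusted p = 0.326). The L-xylulose reductase gene NCU09041 had 998 and 1415 FPKM on orange peel powder, against 1624, 1339.7 and 807 on pectin (-0.02, adjusted p = 0.977), with the groups interleaved. No pentose gene was called without either orange peel powder library, and NCU00891 lost its call without pectin library 2 (adjusted p = 0.107).

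Among 17 sugar transporter genes, 2 were called higher and none lower, where 1.05% and 1.11% of all tested genes were. The list median was 0.13. The gene cdt-2 (NCU08114, contig 10.1, positions 318873 to 321079), for a cellodextrin transporter that also takes up xylodextrins, had 3544 and 3685 FPKM on orange peel powder, against 311, 482 and 732 on pectin (2.91, SE 0.32, adjusted p = 0.00752). The transporter gene NCU06138 had 849 and 809 FPKM on orange peel powder, against 187, 137 and 236 on pectin (2.18, adjusted p = 0.00521). By contrast the companion cellodextrin transporter gene cdt-1 had 841 and 1118 FPKM on orange peel powder, against 815, 1172 and 1283 on pectin (-0.14, adjusted p = 0.756). NCU01633, a low-affinity glucose transporter gene, had 1919 and 2038 FPKM on orange peel powder, against 501, 1382 and 217 on pectin. Its groups did not overlap, but the pectin libraries varied more than 6-fold and it was not called (1.89, SE 0.65, adjusted p = 0.162). Neither call held when either orange peel powder library was left out, and that of cdt-2 was lost without pectin library 2 (adjusted p = 0.059). Without pectin library 3 the count was 3, with the transporter gene NCU05853 added (1.06, adjusted p = 0.00484), and the same gene was called under quantile normalization (1.00, adjusted p = 0.0409).

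Of 27 genes of the cellulose list 25 were tested. In this list 1 was called lower and none higher, where 1.11% and 1.05% of all tested genes were. An unadjusted limma p below 0.05 was reached by 6, against 21.4% of all tested genes, and the median was -0.18. The endoglucanase gene gh5-1 (NCU00762) had 18.2 and 19.9 FPKM on orange peel powder, against 179.7, 144 and 61.9 on pectin (-2.56, SE 0.41, adjusted p = 0.0245), a call lost without pectin library 1 (adjusted p = 0.0511) or 2 (0.118). Without pectin library 3, 2 cellulose genes were called lower, with gh61-1 added (-1.17, adjusted p = 0.0131). The cellobiohydrolase gene cbh-1 had 61.7 and 73.6 FPKM on orange peel powder, against 139, 118 and 71.9 on pectin (-0.64, adjusted p = 0.242). The beta-glucosidase gene gh3-3 had 1202 and 1272 FPKM on orange peel powder, against 758, 762 and 1035 on pectin (0.55, adjusted p = 0.131). Mannan is another hemicellulose of plant walls. All 3 mannan genes lay lower on orange peel powder without being called by limma, each wholly below the pectin libraries (22.7% of all tested genes) and with an unadjusted p below 0.05 (21.4% of all tested genes), and their median was -1.17. The endo-mannanase gene NCU08412 had 488 and 826 FPKM on orange peel powder, against 1706, 2441 and 939 on pectin (-1.31, adjusted p = 0.125). Without pectin library 3, which lay nearest to the peel, it was called (-1.68, adjusted p = 0.0119), as were NCU08087 (-1.30, adjusted p = 0.0496) and the beta-mannosidase gene gh2-1 (-1.28, adjusted p = 0.00478). NCU08087 was low throughout, at 3.08 and 5.69 FPKM on orange peel powder, against 12.7, 11.1 and 8.91 on pectin.

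Free sugars and starch are components of whole peel. None of the 6 genes for cleaving sucrose or starch was called by limma, where 2.16% of all tested genes were. An unadjusted p below 0.05 was reached by 4 of them, against 21.4% of all tested genes. The invertase gene inv, which splits sucrose, had 14569 and 13169 FPKM on orange peel powder, against 5028, 9225 and 9455 on pectin (0.87, SE 0.29, adjusted p = 0.152). Its peel libraries were above all pectin libraries, of which library 1 was the lowest. The glucoamylase gene gla-1 had 7090.4 and 5748 FPKM on orange peel powder, against 6102, 16879.9 and 13678 on pectin (-0.81, adjusted p = 0.3), with the groups overlapping. NCU08746 of this list was called without pectin library 1 (-2.05, adjusted p = 0.0301), and gh13-6 was called higher without pectin library 3 (1.13, adjusted p = 0.0396).

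None of the 8 carbon regulator genes was called by limma, where 2.16% of all tested genes were. Of the 8, 3 had an unadjusted p below 0.05 (21.4% of all tested genes), and their median was -0.28. The gene xlr-1, an activator of xylanase genes, had 340.4 and 293 FPKM on orange peel powder, against 380.3, 369 and 298 on pectin (-0.14, adjusted p = 0.665). The cellulase activator gene clr-1 had 289.9 and 290.2 FPKM on orange peel powder, against 249, 181 and 173 on pectin (0.54, adjusted p = 0.154). The carbon repressor gene cre-1 had 309 and 305 FPKM on orange peel powder, against 439.8, 527 and 249 on pectin (-0.33, adjusted p = 0.562). In xlr-1 and cre-1 the groups overlapped, and in clr-1 both peel libraries lay above the pectin libraries. The gene col-26, a regulator of starch and glucose responses, had 630.5 and 512 FPKM on orange peel powder, against 1263, 1266 and 709.6 on pectin (-0.88, adjusted p = 0.128), and was called without pectin library 3 (-1.15, adjusted p = 0.0053). The cellulase regulator gene clr-2 had 20.1 and 13.2 FPKM on orange peel powder, against 40.7, 33.9 and 16.3 on pectin (-0.76, adjusted p = 0.313), and was likewise called without that library (-1.14, adjusted p = 0.0335).

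**Figure D4:**
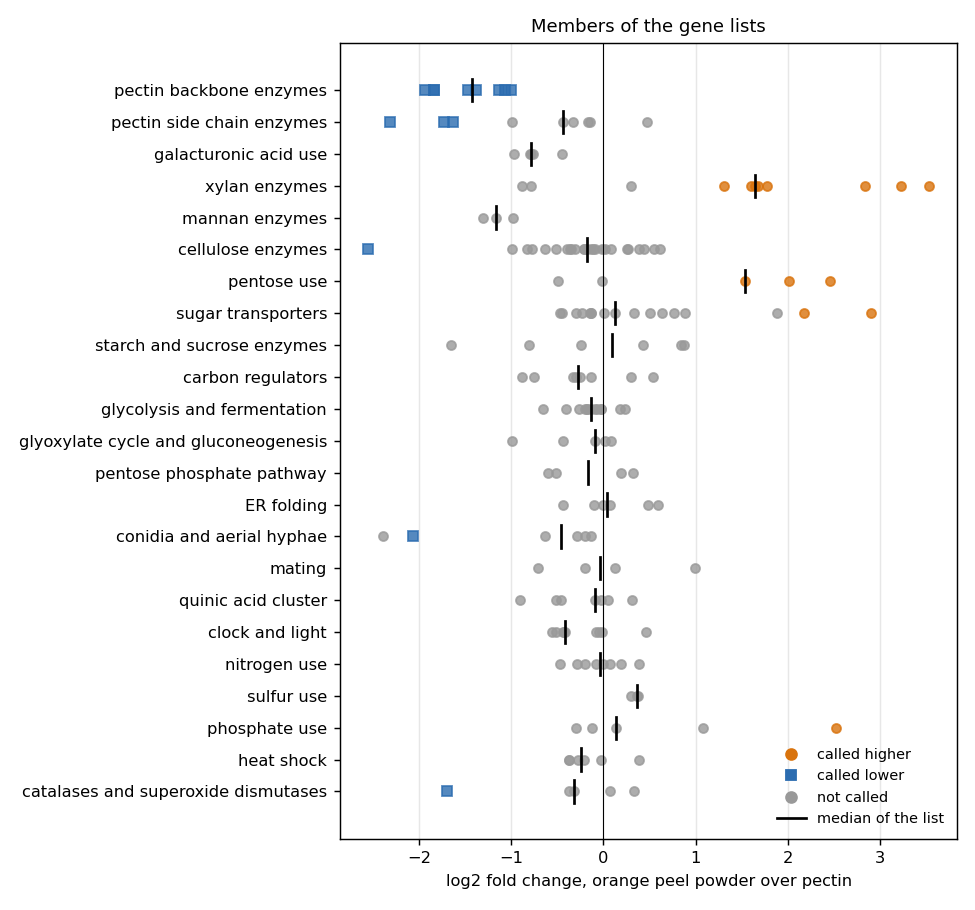
Each row is a gene list and each point a tested member, placed by its log2 fold change of orange peel powder over pectin, with orange circles called higher, blue squares called lower, grey circles not called and black bars at list medians. Pectin backbone enzymes sit at the left with a median of -1.42, and xylan enzymes and pentose use at the right with medians of 1.65 and 1.54.

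Central carbon metabolism held no call, where 2.16% of all tested genes were called. At that share, the absence of calls in short lists says little. None of 13 glycolysis and fermentation genes, 5 glyoxylate cycle and gluconeogenesis genes and 4 pentose phosphate genes was called by limma in either direction. Their medians were -0.14, -0.09 and -0.17, with 1, 2 and 2 genes at an unadjusted p below 0.05 (21.4% of all tested genes). The largest difference among them was in acu-5, the acetyl-CoA synthetase gene, with 540.1 and 564 FPKM on orange peel powder, against 921, 1232 and 1153 on pectin (-0.99, adjusted p = 0.0251), just inside the 2-fold limit; without pectin library 1 it was called (-1.11, adjusted p = 0.0203). Secretory folding genes were also without a call among 6, with a median of 0.03, and so were 8 nitrogen, 7 quinic acid, 6 heat shock and 3 sulfur genes. By an unadjusted limma p below 0.05 the counts were 2 folding, 0 nitrogen, 1 quinic acid, 1 heat shock and 0 sulfur genes, beside the same 21.4%. Without pectin library 1 the nitrite reductase gene nit-6 was called lower (-1.02, adjusted p = 0.0487). In the phosphate list the transporter gene pho-4 was called higher, with 90.3 and 66.7 FPKM on orange peel powder, against 12, 21.4 and 7.67 on pectin (2.53, SE 0.38, adjusted p = 0.0204), a call lost without pectin library 1 (adjusted p = 0.0554). The other phosphate transporter gene, pho-5, had 44.2 and 38.5 FPKM on orange peel powder, against 23.5, 13.9 and 21.0 on pectin (1.08, adjusted p = 0.0688), and was called without pectin library 3 (1.14, adjusted p = 0.0411). In the catalase and superoxide dismutase list cat-3, a catalase gene, was called lower, with 126 and 148 FPKM on orange peel powder, against 463, 578 and 330.3 on pectin (-1.70, adjusted p = 0.0156), and it lost the call without pectin library 2 (adjusted p = 0.0624).

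Markers of conidia and aerial hyphae were detected in all libraries, although the labels give mycelia. Of 6 markers none was at 0 and 1 was called lower, where 1.11% of all tested genes were. All 6 had negative fold changes, as 4494 of 8650 tested genes did, and the median was -0.46. The sum over the list was 15165 and 25755 FPKM on orange peel powder, against 41876, 34299.7 and 16027 on pectin, so pectin library 3 lay among the peel libraries. The conidiation gene con-8 had 220.5 and 291 FPKM on orange peel powder, against 1432, 1391 and 607 on pectin (-2.07, SE 0.37, adjusted p = 0.0334), a call lost without pectin library 1 (adjusted p = 0.0748) or 2 (0.137). The hydrophobin gene eas had 818.5 and 891 FPKM on orange peel powder, against 6245, 7201 and 2025 on pectin (-2.40, adjusted p = 0.0523). Without pectin library 3 it was called (-2.97, adjusted p = 9.53e-05). In bulk RNA fewer cells of a type and less RNA per cell cannot be told apart. The part of these markers in the differences of other genes was not tested.

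Genes of light response and mating gave no call by limma, where 2.16% of all tested genes were called. In each list 1 gene had an unadjusted p below 0.05, as 21.4% of all tested genes did. The 9 clock and light genes had a median of -0.42 and a summed level of 3072 and 3237 FPKM on orange peel powder, against 5295, 3967 and 2529.7 on pectin. The carotenoid gene al-1 had 537 and 573 FPKM on orange peel powder, against 1240.3, 915 and 485 on pectin (-0.56, adjusted p = 0.405). The 4 mating genes were low, at 52.9 and 71.5 FPKM in sum on orange peel powder, against 50.1, 46.5 and 33.6 on pectin. As with the conidial markers, the light genes of pectin library 3 were below those of pectin libraries 1 and 2 in sum.

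Outside the lists, 151 called genes were eligible to be named, and the 15 largest increases and 15 largest decreases are described. The largest increase of all belonged to NCU00606 (contig 10.1, positions 7858635 to 7859423), with 1121 and 1062 FPKM on orange peel powder, against 22.7, 16.1 and 14.8 on pectin (log2 fold change 5.88, SE 0.20, adjusted p = 8.56e-05), 61.1-fold between means. Its neighbour NCU00607, which ends 62 bases before it starts, had 64.5 and 51.4 FPKM on orange peel powder, against 2.54, 0 and 2.17 on pectin (4.71, SE 0.54, adjusted p = 0.00814). Neither gene has a symbol in the tables used. On the other carbon sources NCU00606 was at 49.7 FPKM in the xylan library, 30.7 ± 5.21 on Avicel (microcrystalline cellulose), 27.7 ± 3.94 without carbon and 51.5 ± 27.7 on sucrose (SD, n = 3 each for the last 3 groups). Those 3 groups come from an earlier study, so study and carbon source cannot be told apart in such a listing.

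The gene erg-4 (NCU03006, contig 10.1, positions 8462801 to 8464460), named for ergosterol synthesis, had 6371 and 5906 FPKM on orange peel powder, against 900.3, 672 and 730.1 on pectin (3.01, SE 0.16, adjusted p = 0.000391). It was the most abundant of the 15 increases, at rank 113 on orange peel powder and rank 916 on pectin. The gene ci-1 had 1328 and 1164 FPKM on orange peel powder, against 151, 156 and 152 on pectin (3.02, SE 0.13, adjusted p = 0.000159). The gene mig-12 had 813 and 665 FPKM on orange peel powder, against 99.8, 64.5 and 46.2 on pectin (3.44, SE 0.30, adjusted p = 0.00274). All 3 had wide gaps between the groups, and both erg-4 and ci-1 kept their calls without any single library.

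Other increases reached high levels as well. NCU02624 had 4182 and 4819 FPKM on orange peel powder, against 709.7, 907 and 937 on pectin (2.41, adjusted p = 0.00156). NCU04108 had 2682 and 2258 FPKM on orange peel powder, against 267, 422 and 783 on pectin (2.46, adjusted p = 0.0245), and lost its call without pectin library 2 (adjusted p = 0.118). NCU04401 had 803 and 829 FPKM on orange peel powder, against 185, 184 and 152 on pectin (2.23, adjusted p = 0.000939). In the xylan library NCU04401 and NCU00292 were at 9855 and 5052 FPKM, above every library of both groups. Others were low in all 5 libraries. The polyketide synthase gene pks-3 had 37.2 and 44.9 FPKM on orange peel powder, against 5.16, 9.35 and 10.4 on pectin (2.22, adjusted p = 0.0155), a call lost without pectin library 2 (adjusted p = 0.0629). The L-amino acid oxidase gene lao had 75.9 and 61.3 FPKM on orange peel powder, against 11.1, 12.1 and 24.0 on pectin (2.13, adjusted p = 0.0214), lost without pectin library 1 (adjusted p = 0.0511) or 2 (0.105). The remaining increases, NCU00292, NCU07966, NCU04805, NCU11665 and NCU09274, had log2 fold changes of 2.59, 2.33, 2.23, 2.16 and 2.10. Without pectin library 2 the calls of NCU11665 (adjusted p = 0.0629) and NCU09274 (0.076) were lost.

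The largest decrease belonged to NCU06650 (contig 10.5, positions 4123175 to 4123939), with 508 and 480.1 FPKM on orange peel powder, against 8175, 8505 and 4537 on pectin (-3.78, SE 0.28, adjusted p = 0.00165). It ranked at 1316 on orange peel powder and at 114 on pectin, and it was at 1460.5 FPKM in the xylan library. The gene fkr-3 had 228 and 215 FPKM on orange peel powder, against 1361, 1454 and 1362 on pectin (-2.65, SE 0.12, adjusted p = 0.000159), and it kept its call without any single library. The gene app, for the abundant perithecial protein, had 186 and 108 FPKM on orange peel powder, against 1360.1, 624 and 591 on pectin (-2.48, SE 0.39, adjusted p = 0.0241), and lost its call without pectin library 2 (adjusted p = 0.0844). In fkr-3 the pectin libraries were tight, whereas in app pectin library 1 stood well above the others. NCU08739 had 402 and 376 FPKM on orange peel powder, against 1919.6, 1469 and 1927 on pectin (-2.17, adjusted p = 0.00165). On the other carbon sources NCU08739 was at 11.0 FPKM in the xylan library, 3.60 ± 3.12 on Avicel, 6.06 ± 0.477 without carbon and 18.1 ± 2.67 on sucrose (SD, n = 3 each for the last 3 groups). It was thus high in both groups compared here and low in the rest of the series, and for the last 3 groups study and carbon source cannot be told apart.

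Decreases at lower levels included NCU09167 and NCU09168, adjacent genes at 2.53 and 2.23 FPKM and at 3.20 and 2.27 FPKM on orange peel powder, against 54.3, 26.8 and 22.8 FPKM and 49.3, 24.3 and 31.4 FPKM on pectin. Their log2 fold changes were -3.30 and -3.22. NCU00732 had 1.91 and 1.73 FPKM on orange peel powder, against 43.1, 26.2 and 14.4 on pectin (-3.23, adjusted p = 0.0134), and lost its call without pectin library 2 (adjusted p = 0.076). The adjacent genes NCU09209 and NCU09210 changed by -2.77 and -2.52 on the log2 scale. The remaining decreases, NCU08432, NCU06328, NCU03512, NCU08398, NCU00937 and NCU09060, had log2 fold changes of -2.41, -2.36, -2.25, -2.19, -2.03 and -1.94. Without pectin library 2 the calls of NCU06328 (adjusted p = 0.118), NCU03512 (0.0629) and NCU08398 (0.121) were lost, the last also without library 1 (0.0656).

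**Figure D5:**
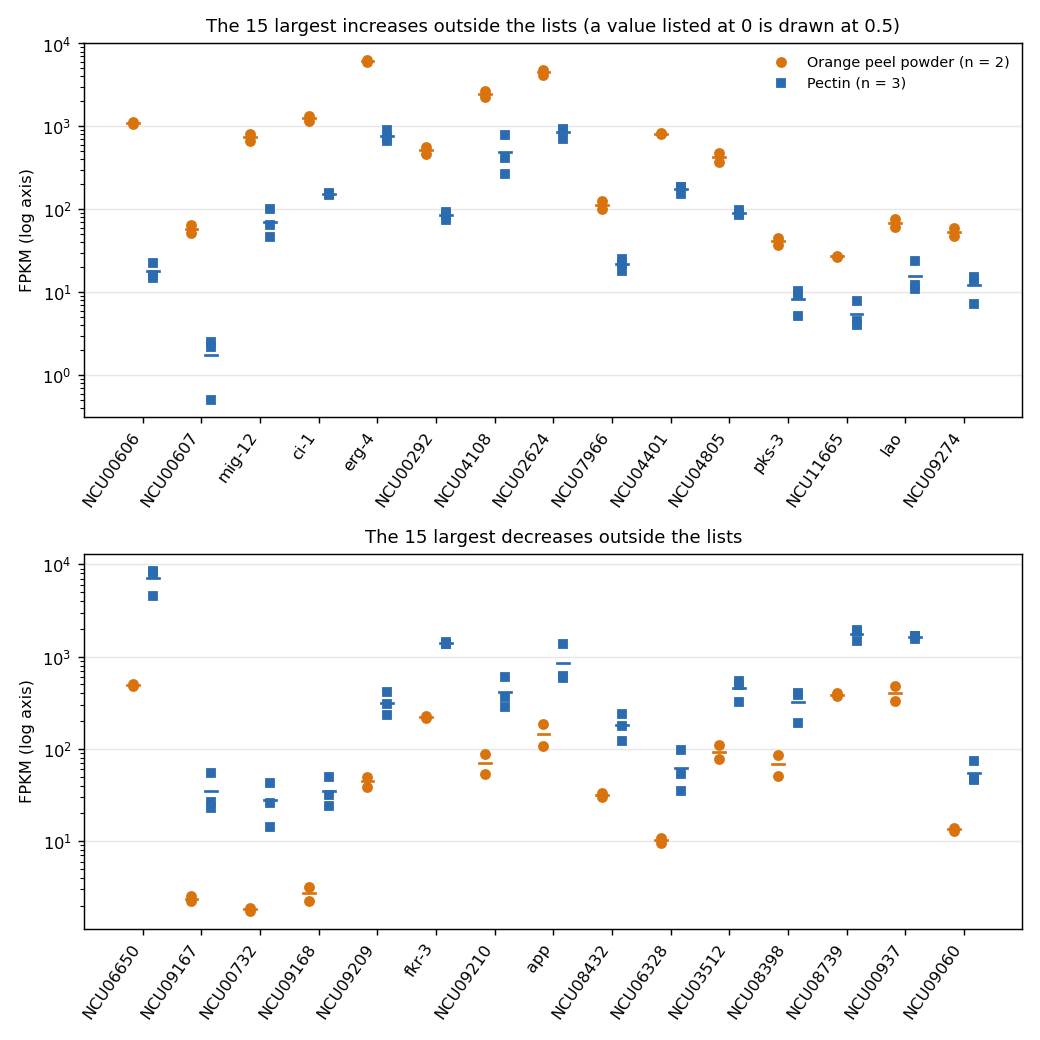
FPKM on a log axis in each library for the 15 largest increases (top) and 15 largest decreases (bottom) among called genes outside the lists, with orange peel powder (n = 2) as circles left of pectin (n = 3) as squares and short lines at the group means. NCU00606 shows the widest gap, at 1121 and 1062 FPKM on orange peel powder against 14.8 to 22.7 on pectin, and a pectin value of NCU00607 listed at 0 is drawn at 0.5.

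A few called genes with a symbol were picked out after their values were seen. The chitinase gene chit-1 had 1787 and 1547 FPKM on orange peel powder, against 328, 437 and 677 on pectin (1.85, SE 0.28, adjusted p = 0.0211). The chitinase family gene gh18-3 had 140.2 and 106 FPKM on orange peel powder, against 32.9, 30.3 and 37.2 on pectin (1.84, adjusted p = 0.00506), and gh18-6 of the same family was also called higher (1.35, adjusted p = 0.0205). The sodium-efflux ATPase gene ena-1 had 1162 and 1213 FPKM on orange peel powder, against 310.1, 456 and 374 on pectin (1.66, adjusted p = 0.00692). The neighbouring genes gcy-1 and cut-1 were called higher together, at 1.18 (adjusted p = 0.0146) and 1.55 (adjusted p = 0.00671). These genes were chosen for their difference, so they carry no weight as groups. None of them was called in every fit that left out 1 library.

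Called genes lay side by side in places. There were 15 runs of adjacent genes called in the same direction, with 37 genes in all, 8 runs higher and 7 lower. Of all tested genes 2.16% were called, and whether runs were more frequent than this share gives was not tested. In the run of gh28-2, NCU11766 overlaps it by 54 bases, so their calls are not separate. The longest, NCU09271 to NCU09274 on contig 10.7, held 4 genes higher on orange peel powder by 1.67, 1.51, 1.51 and 2.10 on the log2 scale. The lyase gene NCU06326 stood in a run of 3 lower genes with NCU06327 (-1.29) and NCU06328 (-2.36). The xylosidase gene NCU09652 was next to NCU09651, called higher at 1.30. NCU00605 followed NCU00607 and NCU00606, called higher at 1.15. Positions follow the authors' tables, and no source used here names their genome build.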

How the data were processed

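Per the labels' protocols, poly(A) RNA of mycelia was captured on beads, broken up, and reverse transcribed from random primers. The authors deposited 1 gene-level table of FPKM per library, with identical gene rows in the tables used. Cufflinks 0.9.3, TopHat 1.2.0 and Cuffdiff stand in the submitters' processing notes without their roles. Genome build, annotation and strandedness are not given in the sources here, and near-identical paralogs may share reads. FPKM values are not counts, and depth is unknown.

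The 5 libraries were fitted alone with limma 3.58.1 (R 4.3.3) on log2(FPKM + 1), with a variance trend and no covariate, over genes averaging 1 FPKM or more. Tests were two-sided with Benjamini-Hochberg adjustment over all genes tested. A gene was called where the adjusted p was below 0.05 and the log2 fold change was 1 or more in size. The pseudocount of 1 understates changes of low genes. The code was tested on simulated data.

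All 23 gene lists, the alternatives and the naming rule were chosen with earlier results of these data known. Named genes are list members and the 15 largest increases and 15 largest decreases outside the lists among called genes whose groups do not overlap and whose higher group averages at least 20 FPKM, apart from those stated to be picked later. Alternatives were other pseudocounts, filters, scalings, moderation, thresholds, a replicate block, and leaving out each library. Gene symbols are those of RefSeq (assembly NC12), in which 9215 of 9733 identifiers were found and 1113 had a symbol. Values on Avicel, sucrose and no carbon came from 9 transcript-level tables of single libraries, joined by identical coordinates, in place of the authors' pooled table that the plan named. Lists by words of a gene description were planned and not run, since the gene table used holds none. Positions count from 1.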

Additional observations from a re-analysis of the deposited data

How the results depend on the processing

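No call of a named gene reversed under any alternative run. Genes called numbered 512 with a replicate block (288 higher, 224 lower), 299 at an adjusted p below 0.05 alone (135 higher, 164 lower) and 54 at an adjusted p below 0.01 with the fold limit (32 higher, 22 lower). With pseudocounts of 0.1 and 5, no filter, a filter at 5 FPKM, upper-quartile or quantile scaling, no trend and robust moderation they numbered 144 to 193. Backbone enzymes called lower numbered 5 under quantile normalization. Leaving out 1 library gave 7 to 405 called genes, 5 to 217 higher, 1 to 188 lower, 0 to 7 backbone, 0 to 3 side chain, 0 to 3 pentose and 2 to 8 xylan genes. Of 58 named called genes, 48 and 51 lost their call without orange peel powder library 1 and 2, and 8, 22 and 1 without pectin library 1, 2 and 3, 9 did without the trend, and 0 to 3 did under each other setting of the fit. The gh28-1 call was lost most often, and NCU00607 lost its call with a pseudocount of 0.1 (adjusted p = 0.0621). The labels do not say that equal replicate numbers pair flasks, so the block was not used for calls. Deviations from group means correlated at 0.119 and 0.219 between same-numbered libraries of the 2 pairs. With 2 orange peel powder libraries their deviations are mirror images, so these values do not settle pairing. The block ended 1 call of a named gene and gave 16 more. Pectin library 3 has no partner, so the block also takes it out of the fold changes, and it leaves 1 residual degree of freedom with the spread set wholly by the trend over genes. The cause of these changes was not tested. With 2 against 3 libraries and unknown depth, values listed at 0 and genes of a few FPKM are the least certain.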
